A study of Mus musculus with 56 samples.

Results

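The histone cluster genes are the genes of the Hist1, Hist2, Hist3 and Hist4 clusters, which encode the linker histone H1 and the core histones H2a, H2b, H3 and H4. Members were all genes with a non-control probe whose name in the array files begins with Hist1h, Hist2h, Hist3h or Hist4h. There were 49 such genes among the 30199 gene names on the array, with 57 probes, and the brightest probe stood for a gene that had more than 1. By family, 6 encode H1, 14 H2a, 12 H2b, 8 H3 and 9 H4. The probe positions of 37 members, all named Hist1, lay on chromosome 13. All but 1 lay between bases 21814057 and 24026527 of mm9. The exception was Hist1h2al, a member by its name, whose probe is at chr13:51299277-51299336.

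Gene expression was measured in the whole blood of C57BL/6 mice, received at 10 to 12 weeks of age and quarantined for 14 days. The 28 90Sr mice were injected in the tail vein with 200 kBq of 85/90SrCl2, in which 85Sr served as tracer, and the 28 control mice were given saline vehicle. Cardiac puncture gave the blood on day 4, 7, 9, 25 or 30, each day with controls of its own. Day 4 had 4 mice in each group, and the later days had 6. One array was run per mouse, in 1 color, after globin reduction. Signals are given as log2 processed intensity minus the median of the array, so that 1 unit is a 2-fold difference and negative values lie below the array median.

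Most cluster histone mRNAs are made in S phase, when new chromatin is assembled, and their transcripts end in a short stem-loop rather than in a poly(A) tail. Several of the same genes can also give polyadenylated transcripts in differentiated cells, among them maturing blood cells. Labeling used Agilent's One-Color Low Input Quick Amp kit, which by its standard protocol primes on poly(A) tails. In whole blood, fewer cells of a type and less RNA per cell cannot be told apart. Genes of red cell precursors, platelets, granulocytes and lymphocytes were measured alongside. All 23 reticulocyte and erythroid genes on the array, which define red cell precursors, passed the detection filter, as did 17 of 17 neutrophil and 20 of 20 T cell genes.

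Histone genes resemble each other, so what a probe can tell apart matters for the values. Of the 49 probes used, 8 shared a run of at least 30 bases with the probe of another member, in 10 pairs that were all within 1 family. The largest set was 6 H2a genes, with shared runs of 18 to 42 bases. The following lines show a 30-base stretch of H2a probes from both the Hist1 and the Hist2 cluster, with the bases that differ from Hist1h2ah in capitals, to show how far H2a probes of different genes can be told apart. Of these genes, Hist1h2af, Hist1h2ah, Hist1h2ak and Hist2h2aa2 are described below.
Hist1h2ah: aggccgtgctgctgcccaagaagaccgaga
Hist1h2af: aggccgtgctgctgcccaagaagaccgaga
Hist1h2ak: aggccgtgctgctgcccaagaagaccgaga
Hist2h2ac: aggccgtgctgctgcccaagaagaccgaga
Hist2h2aa2: aggccgtgctgctgcccaagaagacGgaga
Hist1h2an: aggccgtActgctgccGaagaagaccgaga
The probe of Hist1h2ah lies at chr13:22127035-22127094 on the minus strand of mm9 and that of Hist2h2ac at chr3:96024378-96024437 on the minus strand. Values of these genes are therefore not independent measurements of single genes. The probes of Hist1h2aa, Hist1h2ab, Hist1h2al and Hist3h2a are in no such set. Among H3 genes, the probes of Hist1h3c and Hist1h3f shared 36 bases, shown with the start codon in capitals.
Hist1h3c and Hist1h3f: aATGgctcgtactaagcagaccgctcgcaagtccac
Of the H2b genes described below, none shared such a run with another member. Runs compare probe with probe, so their absence does not show that a probe reads a single gene. By their annotation, 14 member probes listed 2 or more RefSeq accessions, 5 of H2a, 3 of H2b, 2 of H3 and 4 of H4 genes. Those of Hist1h2bc, Hist1h2bp, Hist3h2ba and Hist2h2bb listed 1, and that of Hist1h4k listed 4.

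The stem-loop could be read in a few probes. The hairpin was found in 5 of the 57 member probes (8.77%) and in 7 of all 39429 probes (0.0178%). It lay in the probes used for Hist2h2bb, Hist1h3a, Hist1h3i and Hist1h4m, and the sites are shown with the paired stem in capitals.
Hist2h2bb: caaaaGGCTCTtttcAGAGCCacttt
Hist1h3a: ccaaaGGCTCTtttcAGAGCCaca
Hist1h3i: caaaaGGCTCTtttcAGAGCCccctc
Hist1h4m: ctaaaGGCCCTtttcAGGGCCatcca
The Hist2h2bb probe lies at chr3:96074056-96074115 and the Hist1h4m probe at chr13:21903960-21904019, both on the plus strand of mm9.

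The detection filter, which took out probes that at least 25% of arrays flagged as uneven or too dim, was passed by 46 members and 18770 genes in all. Hist1h1d, Hist2h2ab and Hist1h2bq did not pass. The filter ran over all 56 arrays, so a dim member high in 1 group could pass through that group. At this filter 5 H1, 13 H2a, 11 H2b, 8 H3 and 9 H4 genes were tested, and no member was saturated.

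No histone cluster gene fell by 2-fold in 90Sr mice, and few were called higher. Some rose by 2-fold without being called, such as Hist1h2ba at day 30, at 1.27. With limma at an unadjusted p under 0.001 and a change of at least 2-fold, 0 of 46 members were lower at any of the 5 days, whereas 17.4%, 12.1%, 13.7%, 19.8% and 16.2% of all genes were lower at these days in order. At an unadjusted p under 0.05 with no fold limit, 1, 1, 1, 2 and 1 members were lower. Those called higher numbered 1, 4, 3, 0 and 7, against 2.14%, 2.59%, 4.41%, 5.69% and 15.6% of all genes. In either direction 7 members were called at day 30, where 31.7% of all genes were. At day 30 the share of members called higher was thus close to that of all genes. With the local background capped in another background correction, chosen after seeing the data, 1, 1 and 2 members were called lower at days 4, 9 and 25.

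The changes were mostly small and positive. The median log2 change of the 46 members was 0.53, 0.26, 0.53, 0.13 and 0.59 in order of day, and it was positive in 7, 6, 7, 7 and 8 of 8 scaling and background settings. The corresponding medians of all genes were -0.01, -0.00, -0.08, -0.10 and 0.12. Positive changes were measured for 43, 39, 44, 33 and 37 of the 46 members, and 28 members were positive at every one. With limma's p adjusted by Benjamini-Hochberg and under 0.05, at any fold, 34, 18, 21, 7 and 27 members were higher, where 20.4%, 24.1%, 15.2%, 25.8% and 34.4% of all genes were. Lower at the same threshold were 1, 1, 1, 2 and 1 members, where 33.7%, 33.6%, 27.4%, 38.3% and 29.8% of all genes were.

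**Figure D1:**
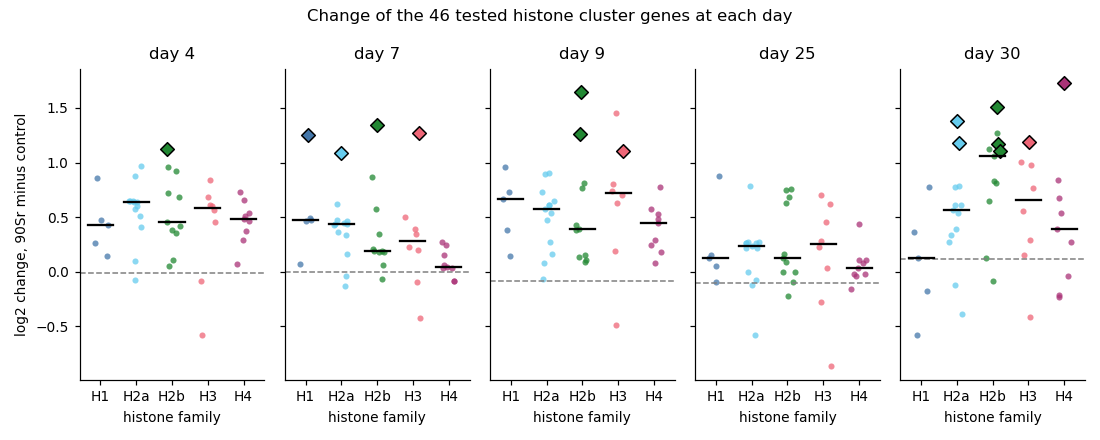
Log2 change (90Sr minus control) of each of the 46 tested histone cluster genes at each day, by family, with called genes as outlined diamonds, family medians as black bars and the median of all genes as a dashed line. The H2b median stands at 1.06 at day 30, and the members reaching furthest below zero are Hist1h3d at days 4 to 25 and Hist1h1e at day 30.

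The medians of the 5 families are given as a description, and their courses were not compared by a test. At day 4 they lay close together, from 0.43 for H1 to 0.64 for H2a, and each was negative in at least 1 of the 8 settings. At day 7 the H1 and H2a medians were 0.47 and 0.43 and that of H4 was 0.04, with H1 negative in 1 and H2a and H4 in 2 of the 8 settings. At day 9 the H3 and H1 medians were 0.72 and 0.67, positive in 8 of 8 settings. By day 25 no family median exceeded the 0.26 of H3. At day 30 the H2b median was 1.06 and positive in 8 of 8 settings, that of H3 was 0.66 and positive in 8 of 8, and those of H2a and H4 were 0.57 and 0.39 and positive in 7 of 8. The H1 median at day 30 was 0.13, next to 0.12 for all genes, and was negative in 2 of the 8 settings.

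The arrays of the groups differed in brightness. Before scaling, the median processed signal of 90Sr arrays lay 0.66, 0.59, 0.94, 0.66 and 0.59 log2 units below that of controls at days 4 to 30. Against the array median used here, scaling on the 75th percentile moved the median change of all genes by 0.19 to 0.48, scaling on detected probes by 0.05 to 0.44, quantile normalization by -0.08 to 0.14, and normexp background correction by -0.42 to 0.18. Capping the local background in normexp moved it by -0.23 to -0.15, and quantile normalization after that by -0.10 to 0.13. Relative to the median of all genes in the same setting, the median of the members was above 0 in 7, 7, 8, 7 and 8 of the 8 settings, in order of day. For H2b at day 30 the relative median ran from 0.30 to 0.99 and for H3 from 0.16 to 0.72. For H1 at day 30 it ran from -0.09 to 0.21.

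**Figure D2:**
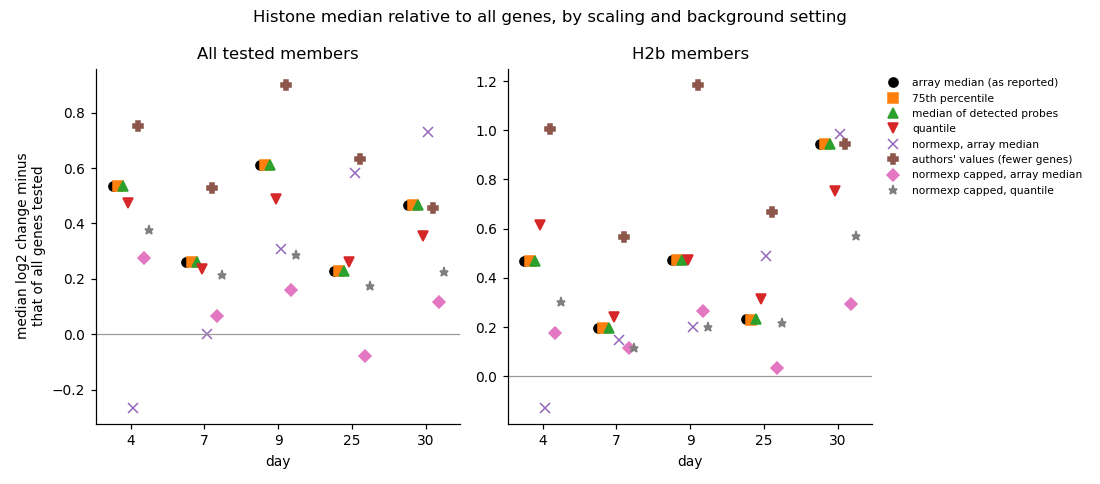
Median log2 change of the tested members (left) and of the H2b members (right) minus the median of all genes tested, at each day and under 8 scaling and background settings, 1 marker per setting. At day 30 all 8 markers lie above zero in both panels, with H2b between 0.30 and 0.99.

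At day 4, the earliest day, 34 of 46 members were higher in every 90Sr mouse than in every control mouse, which was so for 18.2% of all genes, but 1 was called. Hist1h3d was lower in every 90Sr mouse, as 32.3% of all genes were. Hist1h2af, a core histone H2a gene, had signals of 10.72, 10.84, 10.64 and 10.75 in controls and 11.37, 11.39, 11.32 and 11.46 in 90Sr mice. The groups did not overlap, with a change of 0.65 ± 0.11 (SE, limma adjusted p = 0.0012). Hist1h2ah, whose probe shares 41 bases with it, changed by 0.60 ± 0.11. The only member called was Hist3h2bb-ps, named as an H2b pseudogene, whose signals were -0.64, -0.77, -0.75 and -0.61 in controls and 0.62, 0.73, 0.03 and 0.34 in 90Sr mice. Because it was not well above background on any control array, its difference is a bound, at least 2.05-fold (limma adjusted p = 0.00058). With normexp, capped normexp and capped normexp followed by quantile normalization its change was 0.11, 0.18 and 0.14, and not called. The day 4 control arrays shared 1 slide and the 90Sr arrays another, so slide and group cannot be told apart there.

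At days 7 and 9 the H2b gene Hist2h2bb, whose used probe holds the stem-loop shown above, was called at both. Its other probe had a mean signal of -1.54 over all arrays, was well above background on 0 arrays and was not tested. The values of Hist2h2bb therefore come from the probe with the stem-loop alone. The day 7 signal of this gene was lowest 0.73, median 1.06 and highest 1.23 in controls. In 90Sr mice it was 2.19, 2.36 and 2.62, without overlap. The change was 1.34 ± 0.12, or 2.53-fold (limma adjusted p = 7.0e-05). At day 9 controls ran from 0.07 over a median of 0.56 to 0.85 and 90Sr mice from 1.48 over 2.26 to 2.80, again without overlap, a change of 1.65 ± 0.22 or 3.13-fold (limma adjusted p = 9.3e-05). It was smaller at days 25 and 30, at 0.75 ± 0.19 and 0.65 ± 0.23, where the groups overlapped. The change was positive in 8 of 8 settings at days 7, 9, 25 and 30 and in 7 of 8 at day 4. Its size depended on the background correction: with normexp, capped normexp and capped normexp followed by quantile normalization it was 0.27, 0.40 and 0.64 at day 7 and 0.40, 0.36 and 0.69 at day 9, and was not called. Within the slide that held 2 control and 2 90Sr mice of each day, the difference was 1.37, 1.28, 0.58 and 0.99 at days 7, 9, 25 and 30. With the slide as a block the change is this same difference, and at day 9 it was not called. The shared slide of day 9 held the control mouse of replicate 6 and the 90Sr mouse of replicate 1, both low for many members.

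The other members called at day 7 were Hist1h1t, Hist1h2al and Hist1h3g. Hist1h1t, a linker histone known from testis, ran from 0.45 over a median of 0.90 to 1.44 in controls and from 1.48 over 2.10 to 2.72 in 90Sr mice, so that the groups just failed to meet. Its change at day 7 was 1.26 ± 0.23 (limma adjusted p = 0.00064), and at day 30 it was -0.18 ± 0.28 (adjusted p = 0.60). The limma interaction test across days gave an adjusted p of 0.052. Its control mean ran from -0.38 at day 9 to 1.86 at day 30. With normexp, capped normexp and capped normexp followed by quantile normalization its day 7 change was 0.25, 0.39 and 0.63, and not called. With the slide as a block it was 1.28 and not called. Hist1h2al, an H2a gene by its name, ran from 0.87 over 1.43 to 1.47 in controls and from 1.90 over 2.57 to 2.64 in 90Sr mice, without overlap (1.09 ± 0.16, limma adjusted p = 0.00019). Its probe lies outside the stretch that holds the other Hist1 probes. Hist1h3g was not well above background on any control array of day 7, which leaves a bound of at least 1.29-fold. At day 7, 7 members were higher in every 90Sr mouse than in every control, against 8.47% of all genes. The day 7 90Sr arrays of replicates 2 to 5 were on a slide scanned on a day of its own. All day 7 controls were scanned on another day, and leaving those 90Sr arrays out was not tried.

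The second H2b gene called at day 9 was Hist1h2bp, and the H3 gene Hist1h3a was also called. Hist1h2bp ran from 3.48 over a median of 4.30 to 4.42 in day 9 controls and from 4.30 over 5.67 to 5.74 in 90Sr mice, a change of 1.26 ± 0.26 (limma adjusted p = 0.0013). The overlap came from 1 90Sr mouse, which is also low for other members. With normexp, capped normexp and the slide as a block, the day 9 change of Hist1h2bp was 0.87, 0.46 and 1.15, and not called. Only 5 members lay apart without overlap at day 9, against 5.24% of all genes. The 90Sr mouse of replicate 1 and the control mouse of replicate 6 lay below the rest of their groups for many members, and without both arrays 4 members were called higher at day 9.

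At day 30 the members called higher were the H2b genes Hist1h2bp, Hist1h2bc and Hist3h2ba, the H2a genes Hist1h2al and Hist1h2aa, Hist1h3c and Hist1h4h. Hist1h2bc is at chr13:23784254-23784313 on the plus strand of mm9 by its probe. Its signal ran from 10.22 over a median of 10.56 to 10.84 in controls and from 11.42 over 11.76 to 12.08 in 90Sr mice. The groups lay well apart, with a change of 1.17 ± 0.18 or 2.25-fold (limma adjusted p = 0.00016). Hist1h2bp ran from 3.57 over 3.83 to 4.16 in controls and from 4.77 over 5.50 to 5.59 in 90Sr mice, with a change of 1.51 ± 0.19 or 2.84-fold (limma adjusted p = 6.3e-05). Both encode H2b, which pairs with H2a in the nucleosome. Hist3h2ba, an H2b gene of the Hist3 cluster, ran from 5.68 over 6.39 to 6.70 in controls and from 7.03 over 7.51 to 7.72 in 90Sr mice (1.10 ± 0.21, limma adjusted p = 0.00044), also without overlap.

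Hist1h4h, an H4 gene, had the largest change of the members at day 30, from 1.24 over a median of 2.08 to 2.36 in controls to 2.58 over 3.85 to 3.98 in 90Sr mice, a change of 1.73 ± 0.28 or 3.32-fold (limma adjusted p = 0.00018). Hist1h3c ran from 6.77 over 7.62 to 7.83 in controls and from 8.39 over 8.81 to 8.88 in 90Sr mice (1.19 ± 0.20, limma adjusted p = 0.00024). Neither gene's groups overlapped. The change of Hist1h2bc, Hist1h2bp, Hist1h4h and Hist1h3c at day 30 was positive in every scaling and background setting that measured it, but ran from 0.56 to 2.08, 0.83 to 1.69, 0.70 to 1.92 and 0.68 to 2.03. With the local background capped, none of the 4 was called, nor with the slide as a block, where Hist1h4h changed by 0.79 (limma unadjusted p = 0.065). With quantile normalization Hist1h2bc and Hist1h3c were not called. Hist1h2aa, known as a testis H2a, ran from 1.77 over 2.35 to 2.40 in controls and from 2.97 over 3.37 to 4.03 in 90Sr mice (1.17 ± 0.20, limma adjusted p = 0.00025). With normexp, capped normexp and capped normexp followed by quantile normalization its change was 0.82, 0.36 and 0.77, and not called. Hist1h2ba, known as a testis H2b, ran from 6.51 over 8.29 to 8.72 in controls and from 8.93 over 9.31 to 9.70 in 90Sr mice and was not called, at 1.27 ± 0.32 (limma adjusted p = 0.0034), although its groups did not overlap.

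Of the 11 H2b genes tested, 9 were higher at day 30 at an adjusted p under 0.05, where 34.4% of all genes were, and 6 did not overlap. The exceptions were Hist2h2be, at 0.13 ± 0.35, and Hist3h2bb-ps, at -0.09 ± 0.26. In all, 16 of 46 members did not overlap at day 30, against 15.1% of all genes.

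**Figure D3:**
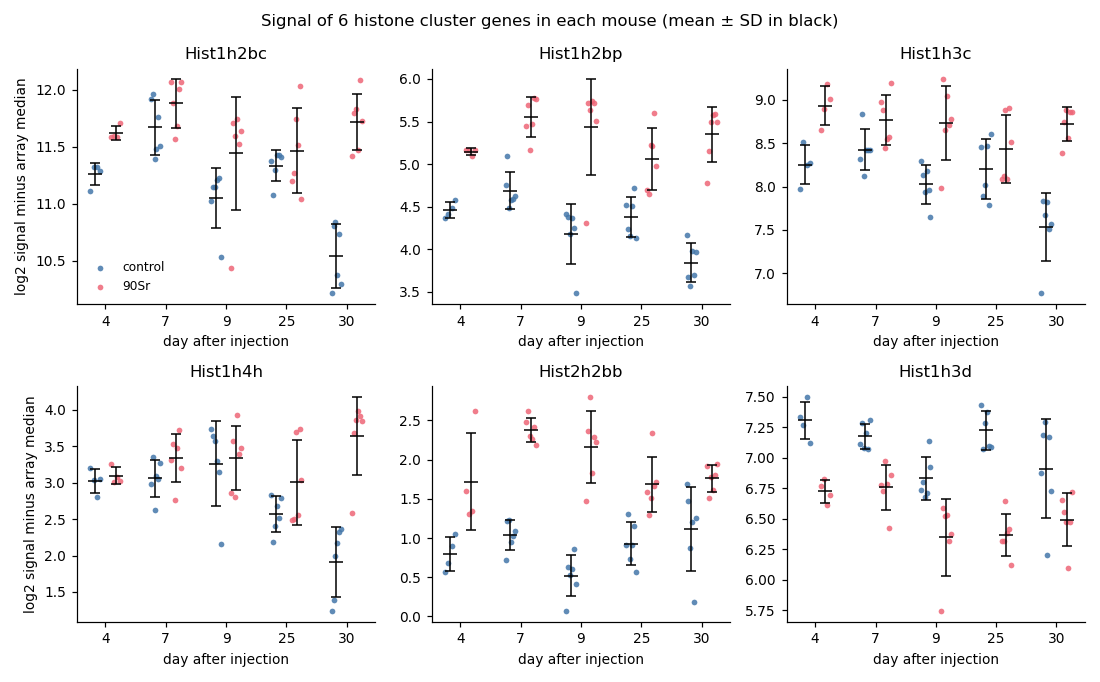
Log2 signal minus array median in each mouse for 6 histone cluster genes, by day, controls in blue and 90Sr mice in red, with the mean and SD in black. Hist1h2bc, Hist1h2bp, Hist1h3c and Hist1h4h stand apart at day 30, Hist2h2bb at days 7 and 9, and Hist1h3d is lower in 90Sr mice without overlap at days 4 to 25.

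Of the 6 90Sr arrays of day 30, 4 were on a slide scanned on a day of its own. Without them, an alternative chosen after seeing the data, 2 90Sr mice faced 6 controls and 0 members were called, as with the slide as a block. Hist1h2bc, Hist1h2bp, Hist1h3c and Hist1h4h then changed by 1.06, 1.12, 1.04 and 1.22 (limma adjusted p = 0.029, 0.024, 0.041 and 0.049). On the slide that held 2 mice of each group, from which the slide-block changes come, the median difference of the 46 members at day 30 was 0.62. Of these differences, 41 were positive. The same quantity was 0.29 at day 7, 0.39 at day 9 and -0.14 at day 25, where 17 members were positive.

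Hist1h3d, an H3 gene, went the other way from most of its family. In controls its day 4 signals were 7.33, 7.27, 7.50 and 7.12, and in 90Sr mice 6.77, 6.83, 6.61 and 6.69. The difference was negative at all 5 days, at -0.58 ± 0.13, -0.42 ± 0.11, -0.48 ± 0.19, -0.86 ± 0.14 and -0.42 ± 0.20, and no 90Sr mouse overlapped the controls at days 4 to 25. The limma adjusted p was 0.0040, 0.0059, 0.046, 0.00025 and 0.087, and the 2-fold limit was not reached at any day as reported. With the local background capped it was -1.11, -1.20 and -1.41 at days 4, 9 and 25, and called lower at each. It was negative in 7 of 7 settings at days 4, 7 and 9, and positive in 1 of 7 at days 25 and 30. Its probe, at chr13:23667979-23668038 on the plus strand of mm9, lists 4 RefSeq accessions. Hist3h2a was the other member negative at all 5 days, and it was lower at day 25 only, at -0.58 ± 0.16 (limma adjusted p = 0.0056), with a positive value in 1 of 7 settings.

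Among the linker histones, 3 of 5 were higher at an adjusted p under 0.05 at day 4 and at day 7, 2 at day 9, and 1 each at days 25 and 30. The shares of all genes were 20.4%, 24.1%, 15.2%, 25.8% and 34.4%, so that the last pair of counts was no higher than the background. Hist1h1c, the gene for H1.2, ran from 8.81 over 9.14 to 9.45 in day 30 controls and from 9.54 over 9.83 to 10.33 in 90Sr mice (0.78 ± 0.18, limma adjusted p = 0.0019). Hist1h1e, the gene for H1.4, was lower at day 30, from 4.60 over 5.02 to 5.11 in controls to 4.13 over 4.26 to 4.84 in 90Sr mice (-0.58 ± 0.17, limma adjusted p = 0.0099), but was positive in 1 of 8 settings.

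Among the H4 genes, Hist1h4i, Hist1h4k and Hist2h4 were higher at day 4 by 0.37 ± 0.12, 0.51 ± 0.11 and 0.47 ± 0.12 (limma adjusted p = 0.025, 0.0033 and 0.0076). At days 7 and 25 0 of the 9 H4 genes passed an adjusted p of 0.05 in either direction, and at days 9 and 30 3 and 4 were higher, against 15.2% and 34.4% of all genes. Different probes of a gene did not always give like changes, among H4 and H2a genes alike. At day 30 the 3 probes of Hist1h4i gave 0.68, 0.84 and 0.93, but those of Hist1h4k gave 0.54 and 0.16. Those of Hist2h4 gave 0.39 and -0.97 (limma adjusted p = 0.072 and 0.0067), the second from a dim probe that was well above background on 20 of 56 arrays. Among H2a genes, the probes of Hist2h2aa2 gave 0.43 and 0.07 at day 7 and 0.57 and 0.38 at day 30. Those of Hist1h2ak gave 0.46 and 0.13 at day 7 and 0.61 and 0.34 at day 30. At day 25 their signs differed, with 0.22 and -0.12 for Hist2h2aa2 and 0.27 and -0.20 for Hist1h2ak.

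Whether the change depended on the day was asked in a limma fit of all 10 groups, by an F test on the interaction terms. The change differed between days for 14 of 46 members, or 30.4%, at an adjusted p under 0.05, against 22.9% of all genes. Of these, 7 were H2b, 3 H4, 2 H2a, 1 H1 and 1 H3 genes, and 9 had their highest change at day 30. Hist1h4h had the smallest adjusted p (0.0014), with changes of 0.07, 0.27, 0.08, 0.43 and 1.73 at days 4 to 30. Hist1h2ab, by contrast, had 0.41, 0.62, 0.90, 0.24 and -0.39 (adjusted p = 0.0028). When the 4 day 30 arrays scanned apart were left out, 0 members differed between days.

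The control mice of the 5 days also differed among themselves. By limma's F test over the 5 control groups, the level differed between days for 42 of 46 members (91.3%) at an adjusted p under 0.05, against 56.4% of all genes. The lowest control mean was at day 9 for 21 and at day 30 for 15 of the 42, and the highest at day 7 for 27. H2b genes were lowest at day 30 for 7 of the 8 that differed, and H4 genes at day 9 for 7 of 9. For Hist1h2bc the control means (± SD) were 11.26 ± 0.10, 11.67 ± 0.24, 11.05 ± 0.26, 11.34 ± 0.13 and 10.55 ± 0.28 at days 4 to 30, n = 4 at day 4 and 6 after. Of the 5 H1 genes, 3 had their highest control mean at day 30, among them Hist1h1e at 4.93 ± 0.20, while Hist1h1c had its lowest there. The changes at day 30 were therefore measured against controls that were themselves low for H2b, and day and slide of the control groups cannot be told apart.

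**Figure D4:**
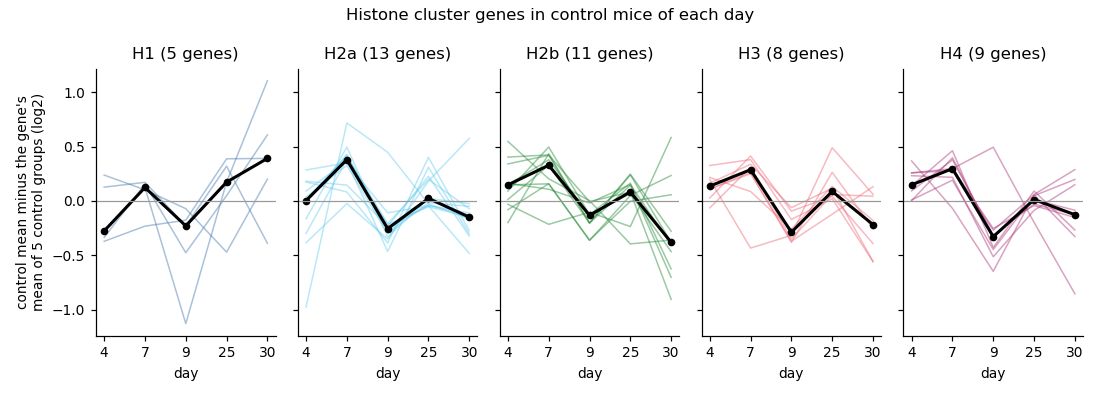
Mean control signal of each tested member at each day minus the mean of its 5 control groups, by family, with the family median in black. Of the members that differed between days, 27 have their highest control mean at day 7, and 7 of 8 H2b genes have their lowest at day 30.

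Genes of cells and processes tied to histones were set beside the members. Of the reticulocyte and erythroid genes, 14 of 23 were called higher at day 9 and 16 at day 30, 1 at day 7 and 0 at days 4 and 25, with median log2 changes of 0.48, 0.62, 1.15, 0.56 and 1.30. The mean signal of the whole list in single mice ran from 7.23 to 7.80 in day 30 controls and from 8.30 to 8.92 in day 30 90Sr mice, and from 7.89 to 8.22 in day 25 controls. Ahsp, a hemoglobin chaperone that was well above background on 56 of 56 arrays, changed by 1.40 ± 0.23 at day 9 and 1.26 ± 0.19 at day 30 (limma adjusted p = 0.00025 and 0.00013). Control means at days 30 and 7 were 7.51 and 8.10 for erythroid genes and 8.08 and 8.91 for platelet genes. They were 5.28 and 5.69 for B cell genes and 2.95 and 3.20 for replication and mitosis genes. T cell genes had 4.97 and 5.19, NK cell genes 3.58 and 3.82, monocyte genes 5.36 and 5.46, but neutrophil genes 4.64 and 4.25. At day 9 the erythroid, platelet, B cell and replication means were 7.75, 8.38, 5.29 and 2.98. The part of red cell RNA in the histone signal was not tested. Platelet genes were called higher for 4 of 19 at day 30, with a median change of 0.79. B cell genes were called lower for 14, 14, 13, 14 and 14 of 16, and monocyte genes for 5, 5, 6, 4 and 4 of 13.

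Genes of DNA replication and mitosis were called in both directions. Of 24, 0, 1, 5, 1 and 9 were higher and 4, 3, 1, 4 and 4 lower at days 4 to 30. The median changes of these 24 were 0.03, 0.20, 0.10, -0.05 and 0.35. Unlike the list, Cdt1, which licenses replication origins, was lower at every day, at -1.39, -1.17, -1.21, -1.38 and -1.44. Replication-independent variants, which replace histones outside S phase, were called lower for 3, 1, 3, 3 and 1 of 11, and 1 was called higher, at day 30. Their median changes were -0.16, -0.18, 0.03, -0.31 and 0.17, with H2afy, the gene for macroH2A, at -1.25 to -1.50 over the 5 days. Of 15 genes of histone mRNA transcription and 3' processing, 3, 2, 3, 6 and 3 were lower and 1 was higher, at day 30. Their median changes were -0.69, -0.60, -0.63, -0.76 and -0.64, and Cpsf2 and Cpsf3, which cut pre-mRNA ends, were lower at all 5 days. Histone chaperones gave 4, 2, 3, 4 and 3 of 16 lower and 3 higher at day 9 and 2 at day 30.

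**Figure D5:**
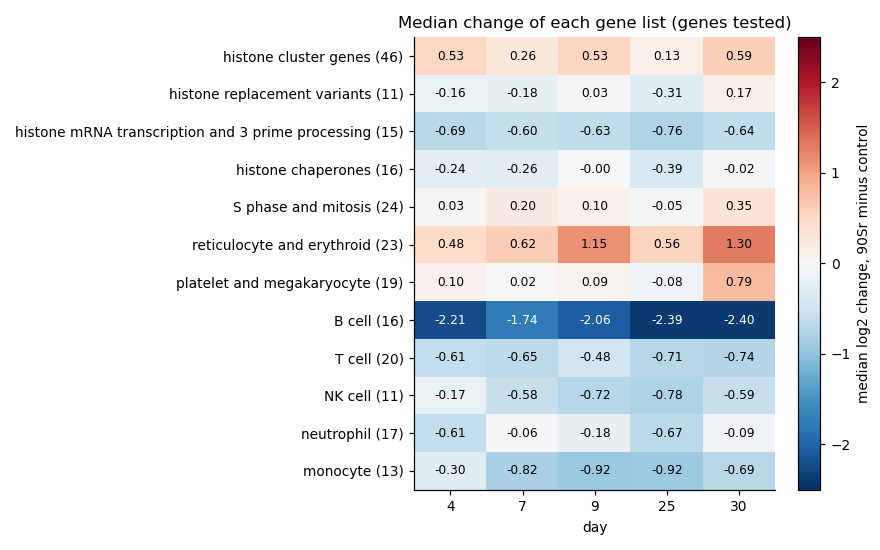
Median log2 change (90Sr minus control) of the histone cluster genes and of 11 gene lists at each day, with the number of genes tested in parentheses. Histone cluster and erythroid medians are positive at all 5 days, and B cell medians lie between -2.40 and -1.74.

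Motifs in the promoters were counted without regard to the change. In the RefSeq table of GRCm38.p6, 40 members had an entry, with 250 bases before and 50 after the start. TATAAA was found on either strand in 24 of 40 members, against 13.6% of all 32851 promoters, CCAAT in 35 (37.4%) and the octamer ATTTGCAT in 13 (1.74%). The octamer was found in 7 of 13 H2a and 6 of 9 H2b promoters and in 0 of the H1, H3 and H4 promoters. CCAAT was found in 2 of 7 H4 promoters and in every promoter of the other families. The 150 bases before the start of Hist1h2bp (chr13:21787338-21787487) and Hist3h2ba (chr11:58948761-58948910), both on the plus strand of GRCm38.p6, are shown because these are called H2b genes of day 30 with an entry, with CCAAT and TATAAA on either strand in capitals.
Hist1h2bp: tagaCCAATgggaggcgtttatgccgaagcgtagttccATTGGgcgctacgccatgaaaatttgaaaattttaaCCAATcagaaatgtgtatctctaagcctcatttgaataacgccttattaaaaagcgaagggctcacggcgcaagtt
Hist3h2ba: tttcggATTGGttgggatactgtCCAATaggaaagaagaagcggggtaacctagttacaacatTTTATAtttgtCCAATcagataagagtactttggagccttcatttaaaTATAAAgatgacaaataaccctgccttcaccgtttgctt
These matches describe the letters in the window and were not compared between members that did and did not change.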

How the data were processed

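RNA of whole blood from 56 mice was hybridized to one-color Agilent arrays of 44397 spots, 1 per mouse. The authors deposited a linear intensity per spot, background-corrected by Feature Extraction (11.5.1.1 per the file headers, 10.7 per the submitters' processing notes) and not scaled between arrays, with probe positions on mm9. The authors also deposited a table of log2 values, median normalized and filtered, used here as an alternative. The number of arrays limits the precision.

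Spots of a probe were averaged and every array's log2 signals had their median over 43020 non-control spots subtracted. Each day was fitted with limma 3.58.1 (statmod 1.5.0) in R 4.3.3. Calls needed an unadjusted p under 0.001 and a 2-fold change. Adjusted p are Benjamini-Hochberg values over all genes tested. A bound is given where no array of a group was well above background. P-values set a difference against the spread between mice of a group. At day 4 no slide held both groups. At days 7 to 30 each group had 2 arrays on a slide shared by both groups and the others on a slide of its own. Where the slide was not fitted, differences between slides can therefore enter the changes. With the slide fitted as a block, a change equals the difference within the shared slide, so only 2 mice of each group bear on it. Alternatives were other scalings, background corrections, filters, slide and replicate blocks, array weights and leaving out mice. The steps were tested on simulated data.

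The members, gene lists and tests were chosen with earlier results of these data known. Genes chosen for description were the 3 of highest mean signal per family, up to 3 called without overlap per day and direction, the 8 of smallest interaction p, and up to 3 per list. Of these, Hist1h1b, Hist1h2bm, Hist1h3f, Hist1h2be and Hist4h4 are given without their changes. Hist3h2a, Hist1h2al, Hist3h2ba, Hist1h3a and Hist2h2be were added after their values were seen, and the genes of printed probes for their sequence. Accessions of 45 members matched the RefSeq table.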

Additional observations from a re-analysis of the deposited data

Results flagged for a closer look

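Of 300 groups of 4 or 6 values tested for 1 mouse far from the rest of its group (Dixon's ratio), 38 held such a value, where chance gives about 1 in 20, or 15. The day 9 control mouse of replicate 6 gave 11 and the day 9 90Sr mouse of replicate 1 gave 10. The log2 signals of the day 9 control mouse were 10.53 for Hist1h2bc, 8.47 for Hist1h2ba, 10.15 for Hist2h2aa2, 10.1 for Hist1h2ah, 7.42 for Hist1h4i, 7.75 for Hist1h4k, 6.88 for Hist2h4, 3.48 for Hist1h2bp and 3.53 for Hist1h2be, and its medians over the H2a and H2b members were 8.4 and 3.48. Those of the day 9 90Sr mouse were 10.44 for Hist1h2bc, 7.99 for Hist1h2bm, 10.4 for Hist2h2aa2, 10.33 for Hist1h2af, 10.29 for Hist1h2ah, 7.0 for Hist1h4i, 7.73 for Hist1h4k, 5.74 for Hist1h3d and 4.3 for Hist1h2bp, and its H2a median was 8.59. Each of these values was the lowest of its group.

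The day 30 control mouse of replicate 1 gave 4, with 6.67 for Hist1h2bm, 6.77 for Hist1h3c, 4.22 for Hist1h3f and 1.77 for Hist1h2aa, again the lowest of its group. At day 30, the 90Sr mouse of replicate 1 had 2.58 for Hist1h4h, the 90Sr mouse of replicate 4 an H2a median of 8.87, and the control mouse of replicate 2 an H3 median of 3.66. At day 25, the control mouse of replicate 2 had 11.08 for Hist1h2bc and 2.52 for Hist1h3g, that of replicate 5 had 4.86 for Hist1h1e, and the 90Sr mice of replicates 3 and 4 had 2.36 for Hist1h3g and 5.02 for Hist1h1e. At day 4, the 90Sr mouse of replicate 3 had 7.31 for Hist1h3f and 5.09 for Hist1h2bp and that of replicate 4 had 11.71 for Hist1h2bc and 1.58 for Hist1h1t. At day 7, the 90Sr mouse of replicate 6 had 4.06 for Hist1h2aa.

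The change differed between days by limma's interaction test for these named genes, with adjusted p = 0.0014 for Hist1h4h, 0.0028 for Hist1h2ab, 0.0053 for Hist1h2bc, 0.0075 for Hist1h2be, 0.011 for Hist1h2ba, 0.014 for Hist4h4, 0.02 for Hist1h2aa, 0.025 for Hist2h2bb, 0.03 for Hist1h3c, 0.032 for Hist1h2bm, 0.038 for Hist1h1e and 0.044 for Hist1h2bp.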

How the results depend on the processing

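In order of day, 1, 4, 3, 0 and 7 members were called higher as reported. Shares of all genes under the other settings are not given, so the counts below do not set the members against all genes. Scaling on the 75th percentile, for example, raised the median change of all genes by 0.19 to 0.48. The counts were 20, 5, 18, 6 and 14 with 75th percentile scaling, 16, 5, 11, 6 and 7 with scaling on probes well above background on all arrays, and 8, 5, 8, 4 and 5 with quantile normalization. Normexp gave 0, 0, 0, 0 and 5, but on 24 of 56 arrays a spot's local background exceeded its mean signal by 200 or more. With that background capped it gave 0 higher at every day and 1, 0, 1, 2 and 0 lower, and with quantile normalization after that 0, 0, 1, 0 and 2 higher; both were chosen after seeing the data. No detection filter gave 2 at day 4 and a stricter one 0. The authors' log2 values, with 13 members tested, gave 2 at day 30, and an adjusted p with 2-fold gave 11. Array weights gave 5 at day 9. With the slide as a block, 1, 0, 0 and 0 were called at days 7, 9, 25 and 30. Without the 4 day 30 90Sr arrays scanned apart, 0 were called at day 30. The change differed between days for 14 members as reported, for 0 with normexp, 6 with the variation filter (17 members tested), 5 with the authors' values, 40 with array weights, 3 with the slide as a random block, 0 as a block, 0 without the 4 day 30 arrays and 24 without the 2 outlying day 9 arrays. The level differed between control days for 42 as reported, 2 with normexp, 13 with the variation filter and 9 with the authors' values. Leaving out 1 mouse at a time gave 1 to 2, 3 to 4, 2 to 4, 0 and 6 to 8 higher at the 5 days, and 8 (without the day 30 90Sr mouse of replicate 3) to 28 (without the day 9 90Sr mouse of replicate 1) that differed between days. For the genes chosen by the rules given above, no direction reversed for a value called as reported. Hist1h2al, Hist3h2ba and Hist1h3a were called but were not part of this check. Apart from the fewer members tested, the cause of these differences was not tested.

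Replicate numbers are shared between groups, but deviations from the group means correlated by more than 0.1 in 8 of 28 same-numbered pairs (r from -0.28 to 0.33). Every pair was positive at day 4 (0.08 to 0.32) and day 30 (0.01 to 0.33). Pairs of unlike numbers were not compared, so whether the numbers pair the mice was not settled, and the mice were treated as unpaired. With the replicate block, 1, 4, 4, 0 and 9 members were called higher and 11 differed between days. The slide could be fitted neither as a fixed nor as a random block at day 4, nor as a fixed block for the control days. Members at the array background, such as Hist3h2bb-ps and Hist1h3g, have bounds only.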
